A study of Mus musculus with 35 samples.

Results

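Tight junctions seal the space between epithelial cells of the kidney tubule. The 9 genes described here encode 7 claudins (Cldn1, Cldn2, Cldn3, Cldn4, Cldn7, Cldn8 and Cldn12), occludin (Ocln) and zonula occludens 1 (Tjp1). They were taken as the genes to which the array annotation assigns a probe set, a group of short oligonucleotides that reads the transcript of a gene. The 9 genes have 18 probe sets among 45101, and all 9 passed the filter on dim probe sets, which kept 13004 of 18193 genes.

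RNA was taken from whole kidneys of FVB/NJ mice aged 2, 4 or 8 months and measured on 35 Affymetrix arrays. Diabetic mice were of the OVE26 line, which carries a calmodulin transgene driven by an insulin promoter in pancreatic beta cells and lacks insulin from early life. The labels call the other mice control and name no genotype, sex or agent. At 2 and at 8 months each group had 6 arrays, and at 4 months 7 arrays came from diabetic mice and 4 from controls. Nothing in the labels says that each array is a separate animal, so p-values measure the spread between these samples, which may be technical.

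Values are log2 signals, and differences are diabetic minus control on that scale with the standard error of the fit. Group means stand with their SD. A gene was called when its limma p, adjusted by Benjamini and Hochberg over all 13004 genes, was under 0.05. An array gives no depth of sequencing, and precision is limited by how many arrays a group has. The mean signal differed between ages by more than between the arrays of an age, so each comparison was made within an age. Marker genes of kidney segments were read beside the tissue label. All 14 listed proximal tubule markers, 8 of 9 measured for the thick ascending limb and 10 of 10 for principal cells of the collecting duct passed the filter. Markers from outside the tubule passed too, 12 of 13 for macrophages and 11 of 11 for endothelium, so passing does not verify the tissue.

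Claudins are membrane proteins with 4 transmembrane segments whose extracellular loops meet those of the neighbouring cell and set which ions and how much water pass between cells. Each nephron segment has its own set. Cldn2 forms a pore for cations and water in the leaky proximal tubule, whereas Cldn3, Cldn4, Cldn7 and Cldn8 belong to the tighter distal nephron and collecting duct. Cldn1 is known in the kidney from the parietal cells of Bowman's capsule. Occludin lies in the same strands, and zonula occludens 1 is the cytoplasmic scaffold that ties them to actin.

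Of these genes, Cldn1, Cldn3, Cldn4 and Cldn7 rose in the diabetic kidney at 8 months, and none of the 9 was called at 2 or 4 months. The promoters of these 4 genes are shown because the genes moved together. They are the 250 bases before the transcription start in RefSeq's GRCm38.p6 annotation. The Cldn1 window lies at chr16:26371840-26372089 on the minus strand, Cldn3 at chr5:134985964-134986213 on the plus strand, Cldn4 at chr5:134946935-134947184 on the minus strand and Cldn7 at chr11:69964529-69964778 on the plus strand. Capitals mark matches on either strand to 5 motifs: AACCNGTT of grainyhead-like factors, TGANTCA of AP-1, the E-box CAGGTG read by Snail and Zeb factors, the GC box GGGCGG and the TATA box TATAAA.
Cldn1: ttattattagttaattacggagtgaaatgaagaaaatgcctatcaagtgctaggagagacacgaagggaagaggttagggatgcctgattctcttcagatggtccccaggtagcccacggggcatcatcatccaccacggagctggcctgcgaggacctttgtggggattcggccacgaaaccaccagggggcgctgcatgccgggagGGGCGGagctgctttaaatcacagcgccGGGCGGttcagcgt
Cldn3: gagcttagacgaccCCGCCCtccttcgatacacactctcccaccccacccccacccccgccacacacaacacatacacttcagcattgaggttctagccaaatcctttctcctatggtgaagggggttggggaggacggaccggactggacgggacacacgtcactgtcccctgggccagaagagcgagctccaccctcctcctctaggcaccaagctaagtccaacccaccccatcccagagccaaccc
Cldn4: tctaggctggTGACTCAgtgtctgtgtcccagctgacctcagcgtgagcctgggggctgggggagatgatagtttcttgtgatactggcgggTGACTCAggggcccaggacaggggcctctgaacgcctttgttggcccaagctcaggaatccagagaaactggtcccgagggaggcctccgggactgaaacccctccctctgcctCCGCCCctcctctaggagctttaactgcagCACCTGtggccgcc
Cldn7: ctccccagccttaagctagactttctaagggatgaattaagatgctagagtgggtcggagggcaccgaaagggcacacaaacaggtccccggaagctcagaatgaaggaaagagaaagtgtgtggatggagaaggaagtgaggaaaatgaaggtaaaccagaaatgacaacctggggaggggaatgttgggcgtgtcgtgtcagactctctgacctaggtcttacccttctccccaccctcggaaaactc

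The Cldn4 window held 2 matches to the AP-1 motif, which begin 240 and 158 bases before the start, and 1 match each to the E-box at 14 bases and the GC box at 44 bases. The Cldn1 window held 2 GC boxes, at 42 and 14 bases, and the Cldn3 window held 1, at 236 bases. The Cldn7 window held none of the 5 motifs. Of 32851 promoter windows of the same length, 6.75% held TGANTCA, 17.2% the E-box, 32.7% the GC box, 12.4% the TATA box and 1.79% AACCNGTT. No motif was found in all 4 windows, and no match overlapped another. Cldn3 and Cldn4 are neighbours on chromosome 5, with 0 protein-coding genes between them in the RefSeq table of the same assembly.

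At 8 months 4 of the 9 genes were called higher in diabetic kidney and 0 lower, against 9.87% of all genes tested called higher and 6.95% called lower, or 16.8% in either direction. The median difference over the 9 genes was 0.12, and over all genes tested it was -0.000362. The rise was largest in Cldn4, followed by Cldn1, Cldn3 and Cldn7, and the 95% intervals of these 4 differences overlapped. The other 5 genes, Cldn2, Cldn8, Cldn12, Ocln and Tjp1, lay between -0.09 and 0.12 and did not pass the test. In whole-kidney RNA, more cells of a type and more RNA per cell cannot be told apart.

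**Figure D1:**
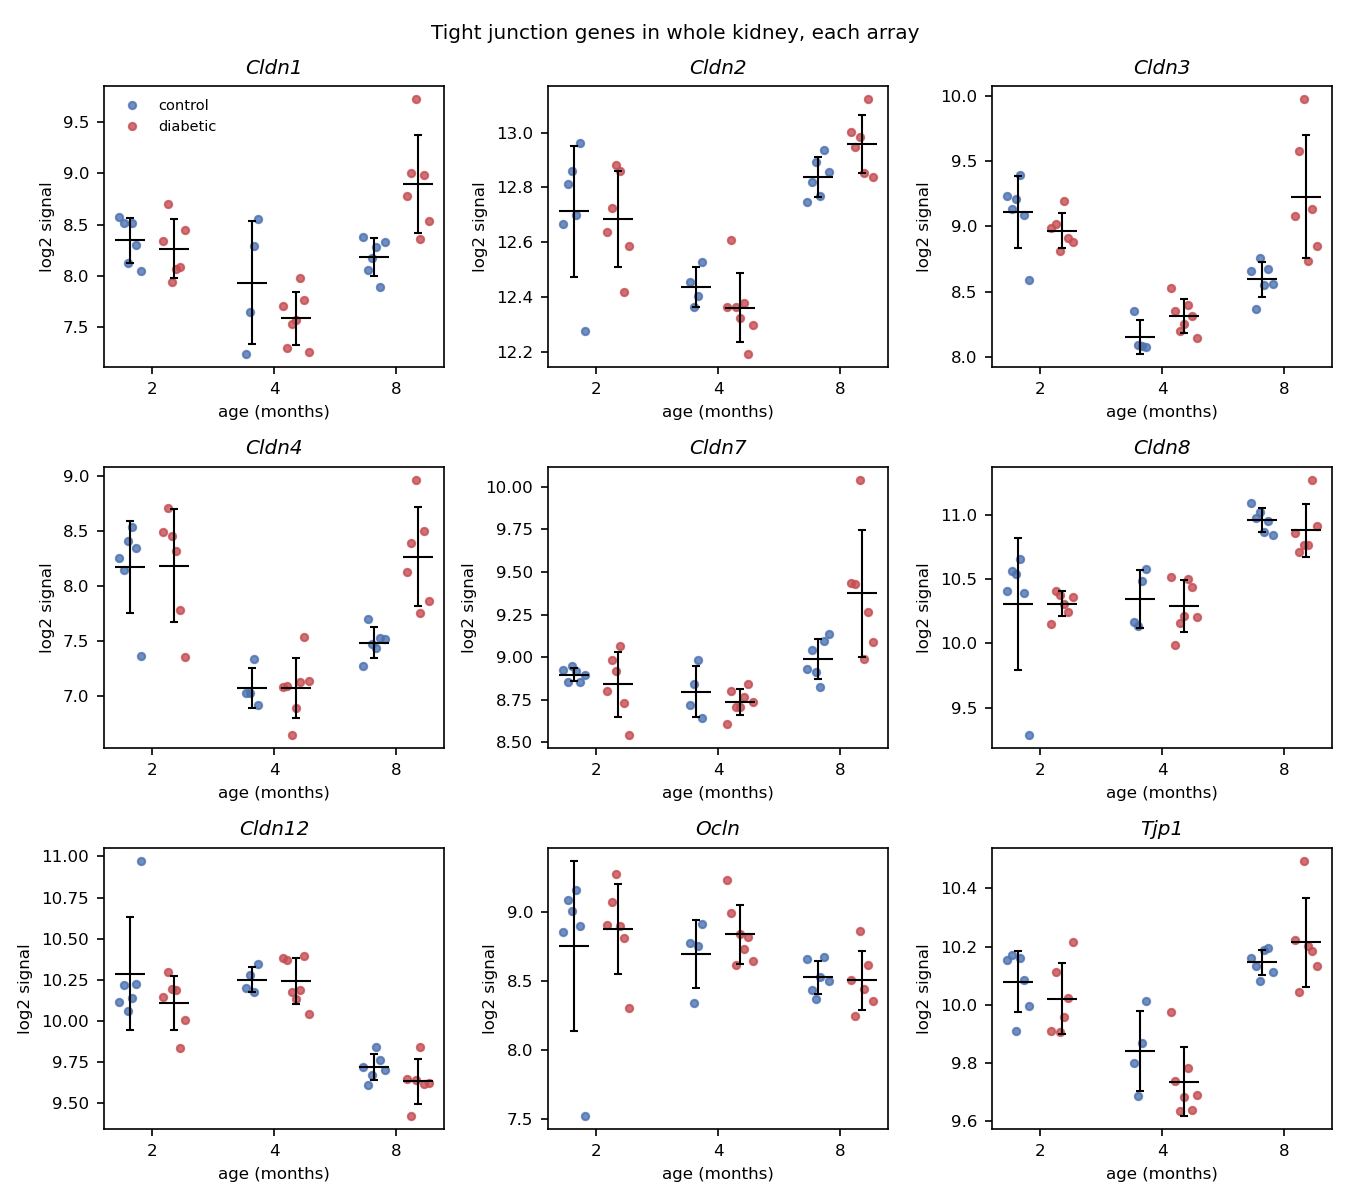
Log2 signal of the 9 genes (vertical axes) against age in months. Each point is an array, blue for control and red for diabetic, and bars give mean ± SD of the group. The 8-month diabetic arrays of Cldn1, Cldn3, Cldn4 and Cldn7 sit higher and spread wider than their controls, and 1 control array at 2 months lies far below the others in Cldn8 (9.28) and Ocln (7.52).

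Cldn4, a claudin of the collecting duct, read 8.12, 8.39, 8.96, 7.76, 8.50 and 7.86 on 8-month diabetic arrays 1 to 6. The controls read 7.27, 7.70, 7.47, 7.44, 7.52 and 7.52. The lowest diabetic array therefore lay above the highest control array. The means were 8.27 ± 0.45 (SD, n = 6) and 7.49 ± 0.14 (SD, n = 6), a difference of 0.78 ± 0.20, or 1.72-fold (adjusted p = 0.00484 with limma). An exact two-sided permutation test of Cldn4 gave p = 0.00216, the smallest that 6 against 6 arrays allow. It was the only one of the 9 genes without overlap between the groups, a share of 11.1%, near the 9.7% of all genes tested that had none.

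Cldn1 read 8.77, 9.0, 9.72, 8.36, 8.98 and 8.53 on the 8-month diabetic arrays. Its controls read 8.38, 8.06, 8.17, 8.28, 7.89 and 8.33. Diabetic array 4 fell just below the highest control, and the other 5 lay above all 6 controls. The difference was 0.71 ± 0.19, or 1.63-fold, between means of 8.89 ± 0.48 and 8.19 ± 0.19 (adjusted p = 0.00703 with limma, exact permutation p = 0.00433).

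Cldn3, which seals the paracellular route, read 9.08, 9.58, 9.98, 8.73, 9.14 and 8.85 on the same diabetic arrays. The controls read 8.66, 8.37, 8.76, 8.55, 8.68 and 8.56. Again 5 of 6 diabetic arrays lay above every control and diabetic array 4 did not. The difference was 0.63 ± 0.14, or 1.55-fold, between means of 9.23 ± 0.47 and 8.59 ± 0.14 (adjusted p = 0.00121 with limma, exact permutation p = 0.00433).

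Cldn7, found along the basolateral membrane of distal tubule cells as well as in the junction, read 9.44, 9.43, 10.04, 8.99, 9.26 and 9.09 on the diabetic arrays. The controls read 8.93, 9.04, 8.91, 8.83, 9.09 and 9.14. Diabetic arrays 4 and 6 lay within the control range and the other 4 above it. The difference was 0.39 ± 0.11, or 1.31-fold, between means of 9.38 ± 0.37 and 8.99 ± 0.12 (adjusted p = 0.0104 with limma, exact permutation p = 0.0195). The call was lost when the 8-month arrays were fitted alone (adjusted p = 0.0762 with limma).

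**Figure D2:**
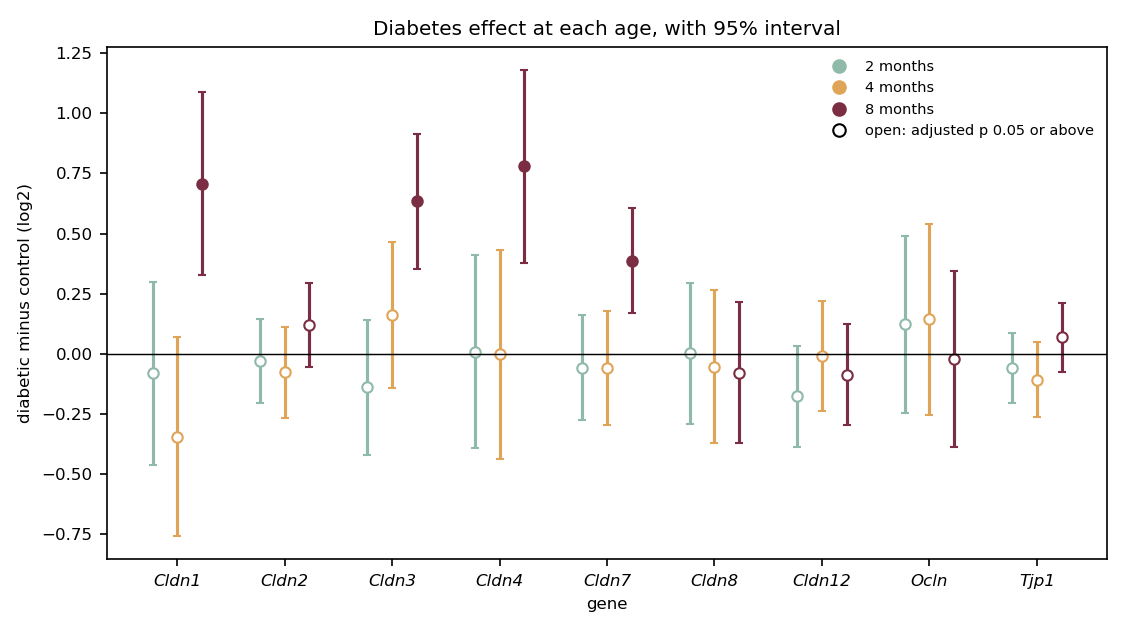
Difference between diabetic and control mean (log2) for each of the 9 genes at 2, 4 and 8 months, with the 95% interval of the limma fit. Filled points passed the adjusted threshold of 0.05 and open points did not; the 4 filled points are Cldn1, Cldn3, Cldn4 and Cldn7 at 8 months.

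The 4 genes varied together between the diabetic arrays of 8 months. Diabetic array 3 was highest and diabetic array 4 lowest in each of them. The first principal component, the main axis of variation over all genes tested at 8 months, had the same extremes among diabetic arrays. It was 15.2, 17, 39, 3, 14 and 10.1 on diabetic arrays 1 to 6 and -22.4 to -9.88 on controls. The placing of these arrays is therefore not particular to the 4 genes. The SD of the diabetic arrays was 2.57 times that of the controls for Cldn1, 3.49 times for Cldn3, 3.24 times for Cldn4 and 3.13 times for Cldn7. The median ratio over all genes tested was 1.41. Tjp1, which was not called, had a ratio of 3.44. Without diabetic array 3 the ratios were 1.51 for Cldn1, 2.43 for Cldn3, 2.34 for Cldn4, 1.69 for Cldn7 and 1.61 for Tjp1, and the median over all genes was 1.26.

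Without diabetic array 3 the differences were 0.54 for Cldn1, 0.48 for Cldn3, 0.64 for Cldn4 and 0.25 for Cldn7, with adjusted p of 0.0351, 0.00491, 0.0241 and 0.0421 from limma. The Cldn7 difference of 0.39 thus shrank by more than 1.5 times, and all 4 genes were still called. They were also called on leaving out each of the other 11 arrays of that age in turn.

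Markers of injured tubule and of infiltrating cells were also higher in the diabetic kidney at 8 months. Of 20 injury markers listed, 18 were measured and 15 tested. Each of these 15 was called higher at 8 months, against 9.87% of all genes tested. The filter used the mean over all arrays, so a marker high only on the 8-month diabetic arrays could pass through those arrays. The summed linear signal of the 15 was 18750, 25680, 35150, 13450, 17920 and 17580 on diabetic arrays 1 to 6, against 9348 to 10030 in controls. The array with the highest sum, diabetic array 3, was the highest for the 4 claudins, and the array with the lowest sum, diabetic array 4, was the lowest. Diabetic array 3 also had the highest sums for macrophage markers (19460), lymphocyte markers (13990) and fibroblast markers (15850). On the other 5 diabetic arrays these 3 sums ranged from 6688 to 11660, from 2794 to 7729 and from 3951 to 6065. In controls they ranged from 4189 to 5230, from 1872 to 3602 and from 2074 to 4025. Diabetic array 5 had the lowest of all 3 sums among diabetic arrays and was not the lowest for any of the 4 claudins. Diabetic array 4, lowest for the 4 claudins, had sums of 7027, 6724 and 4280. Of the markers tested, 11 of 12 for macrophages, 6 of 8 for lymphocytes and 5 of 7 for fibroblasts were called higher, against the same 9.87% of all genes. Among them was Col1a1, a fibrillar collagen, by 1.61 ± 0.33. No marker was listed at 0. The part of these cells and of injury in the claudin differences was not tested.

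**Figure D3:**
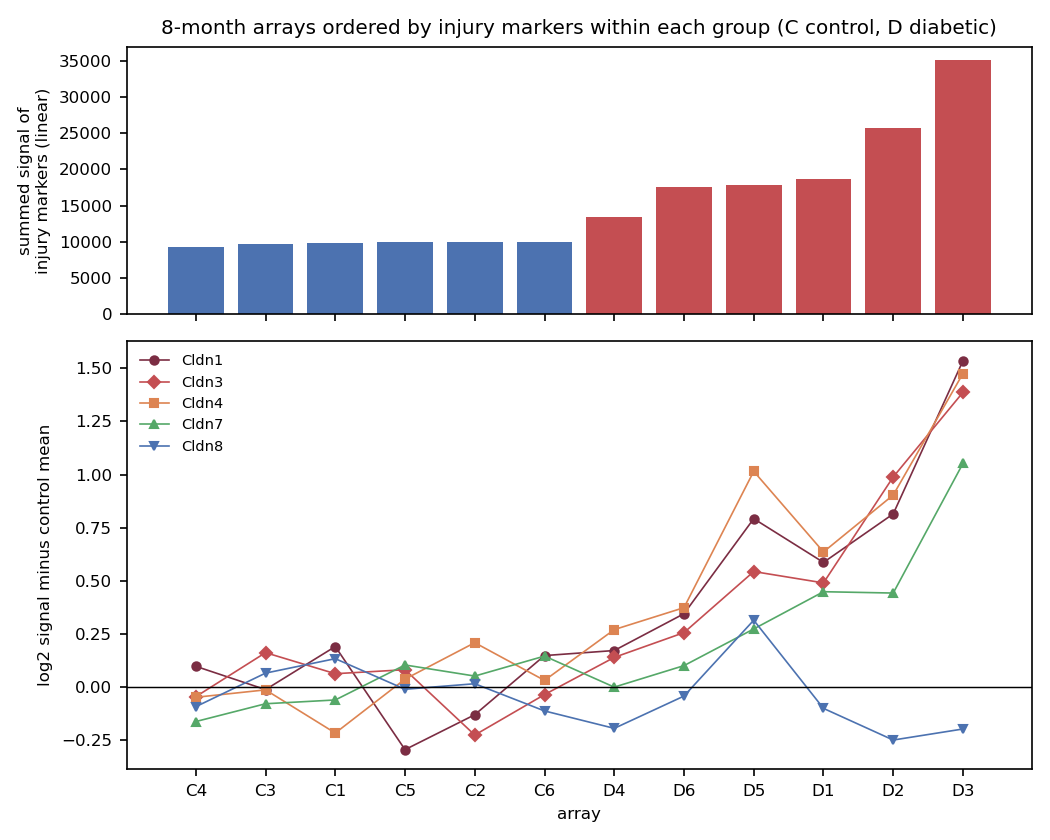
The 12 arrays of 8 months (C control, D diabetic, with replicate number), ordered by summed linear signal of 15 injury markers within each group (upper bars). The lower panel gives log2 signal minus the control mean for 5 claudins; Cldn1, Cldn3, Cldn4 and Cldn7 are highest on D3, which has the highest injury sum (35150), and Cldn8 is highest on D5.

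Segments that are known to hold these claudins gave mixed values. Over all genes tested 9.87% were called higher and 6.95% lower at 8 months, the shares to set beside the counts below. Of 10 principal cell markers 3 were called higher at 8 months, including the water channel Aqp2 by 0.66 ± 0.18, and 1 lower, the basolateral water channel Aqp4, by -0.72 ± 0.17. The summed principal cell signal was 10600 to 13100 on diabetic and 9686 to 11800 on control arrays, and diabetic array 3 had the highest. Intercalated cell markers, of the same duct, were called lower in 6 of 10 and higher in 0, with sums of 4159 to 5384 against 6238 to 6815. Of the thick ascending limb markers 8 of 8, of distal convoluted and connecting tubule markers 7 of 8 and of proximal tubule markers 9 of 14 were called lower. Urothelium, which lines the renal pelvis and carries claudins too, had 2 of 5 markers called higher, including the plaque protein Upk1a by 0.33 ± 0.10. The urothelial sum was 683.3 to 902.9 on diabetic arrays, with a median of 790.9, and 611.1 to 766.6 on controls, with a median of 637.2, and 3 of 6 diabetic arrays lay above every control. On diabetic array 3, highest for the 4 claudins, it was 753.7. The part of urothelium in the claudin differences was not tested. Podocyte markers were called lower in 3 of 7 and endothelial markers in 0 of 11, of which 0 had an unadjusted limma p under 0.05, against 28.6% of all genes tested.

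Cldn3 and Cldn1 have further probe sets, each reading another stretch of the transcript or another set of oligonucleotides. The other 3 of Cldn3 differed by 0.87 ± 0.21, 0.84 ± 0.18 and 0.74 ± 0.17 at 8 months (adjusted p = 0.00533, 0.00133 and 0.0031 with limma over all 34945 single-gene probe sets). In each of these 3 all diabetic arrays lay above all controls. For Cldn1 the next brightest probe set differed by 0.56 ± 0.23 and was not called (adjusted p = 0.151 with limma). Its diabetic arrays ranged from 6.57 to 7.98 and its controls from 6.1 to 6.91. The remaining 2 probe sets of Cldn1 lay below the limit for testing of 5.27, at mean signals of 3.01 and 3.60, and differed by 0.09 ± 0.07 and 0.15 ± 0.07. Exact permutation tests, unadjusted, gave p = 0.0325 for the next brightest probe set and 0.327 and 0.013 for these 2. Averaging the 4 probe sets of Cldn1 gave 0.38 ± 0.11 (adjusted p = 0.0153 with limma).

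**Figure D4:**
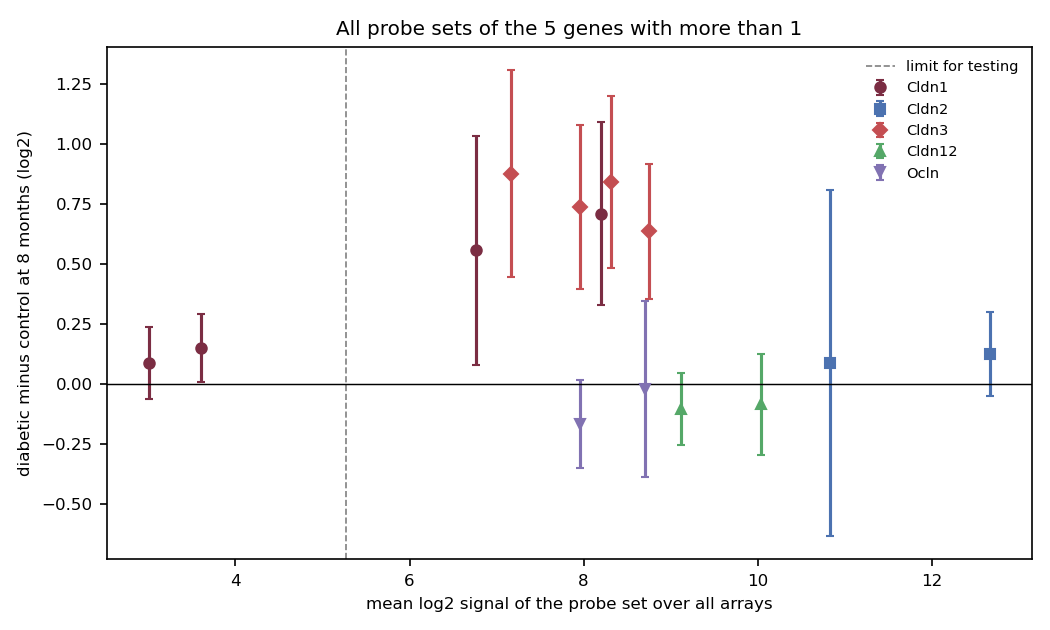
Difference at 8 months (log2, with 95% interval) of every probe set of the 5 genes that have more than 1, against its mean log2 signal over all arrays. The dashed line is the limit for testing; the 4 probe sets of Cldn3 differ by 0.63 to 0.87, while those of Cldn1 reach from 0.09 on the dimmest to 0.71 on the brightest.

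Among the 5 genes without a call at 8 months, Cldn2 differed by 0.12 ± 0.09 (adjusted p = 0.378 with limma). Its diabetic arrays had a lowest, median and highest signal of 12.84, 12.97 and 13.12, and its controls 12.75, 12.84 and 12.94. All 6 diabetic arrays exceeded the control mean and the groups overlapped. The exact permutation test of this gene alone, unadjusted, gave p = 0.0433. A second probe set of Cldn2 differed by 0.09 ± 0.35. Its SDs at 8 months were 0.09 in diabetic and 0.19 in control arrays. The wider standard error comes from the spread shared over all ages, where 2-month control array 6 read 7.70 on this probe set.

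Cldn8, a partner of Cldn4 in the collecting duct, did not pass the test. Diabetic arrays read 10.71, 10.81 and 11.28 and controls 10.85, 10.97 and 11.10 (lowest, median and highest), and the difference was -0.08 ± 0.14 (95% interval from -0.37 to 0.22, adjusted p = 0.781 with limma). Diabetic array 5 was the highest of its group for Cldn8, whereas diabetic array 3, highest for the 4 called genes, read 10.77.

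Cldn12, a claudin linked to calcium passage, read 9.42, 9.63 and 9.85 in diabetic and 9.61, 9.71 and 9.84 in control arrays, a difference of -0.09 ± 0.10 (adjusted p = 0.643 with limma). Ocln read 8.25, 8.47 and 8.86 against 8.37, 8.51 and 8.68, a difference of -0.02 ± 0.18 (adjusted p = 0.96 with limma). Tjp1 read 10.04, 10.19 and 10.49 against 10.08, 10.15 and 10.20, a difference of 0.07 ± 0.07 (adjusted p = 0.579 with limma). The groups overlapped in each of these 3 genes. For Tjp1 the highest array was again diabetic array 3, and without it the difference was 0.01. The second probe sets of Cldn12 and Ocln differed by -0.11 ± 0.07 and -0.17 ± 0.09 and were not called. Their exact permutation tests, unadjusted, gave p = 0.147 and 0.0216. On the second probe set of Ocln 4 of 6 diabetic arrays lay below every control.

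At 2 months 0 of the 9 genes were called, against 2.54% of all genes tested, and 0 had an unadjusted limma p under 0.05, against 15.2%. With replicate number as a block, since same-numbered arrays of this age deviated together, again 0 were called, while the count over all genes went from 330 to 553. Differences ran from -0.18 in Cldn12 to 0.12 in Ocln, and exact permutation p from 0.294 to 0.998. Control array 6 stood apart in 4 of the genes. On it Cldn8 read 9.28 where the other 5 controls read 10.40 to 10.66, Ocln read 7.52 where they read 8.86 to 9.16, and Cldn4 read 7.37 where they read 8.15 to 8.53. Cldn12 went the other way, at 10.97 against 10.06 to 10.22.

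The 3′/5′ log2 ratio of the beta-actin control probe sets, a sign of RNA degradation, was 2.56 on 2-month control array 6 and 0.81 to 1.35 on the other 11 arrays of that age. Without that array the 2-month differences were -0.20 for Cldn8, -0.12 for Ocln, -0.15 for Cldn4 and -0.04 for Cldn12, and none was called. Diabetic array 6 was also low for Cldn4, at 7.36, and for Ocln, at 8.30, with an actin ratio of 1.18. The part of RNA quality in these values was not tested beyond these refits.

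At 4 months 0 of the 9 genes were called, against 0.969% of all genes tested, and 0 had an unadjusted limma p under 0.05, against 11.4%. Differences ran from -0.34 in Cldn1 to 0.16 in Cldn3, and exact permutation p from 0.0758 to 0.988. Cldn1 controls read 7.24, 7.65, 8.29 and 8.55, and the 7 diabetic arrays read 7.26, 7.57 and 7.98 (lowest, median and highest). Control arrays 3 and 4 thus lay above all diabetic arrays and the others did not. They differed from the other 9 arrays of that age in Arntl, a core clock gene, at 7.84 and 8.17 against 5.54 to 6.21. Without these 2 controls the Cldn1 difference turned from -0.34 to 0.14, with no call either way. Cldn3 read 8.15, 8.31 and 8.53 on the diabetic arrays, while its controls read 8.35, 8.09, 8.08 and 8.08, and 6 of 7 diabetic arrays exceeded the control mean. Cldn4 and Cldn7 differed by -0.00 ± 0.21 and -0.06 ± 0.12 at this age.

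Whether the diabetes effect itself changed with age was tested apart. By the F test over the 3 effects 0 of the 9 genes were called, against 2.5% of all genes tested, with adjusted p of 0.0515 for Cldn1, 0.0551 for Cldn3, 0.142 for Cldn7 and 0.17 for Cldn4 from limma. Unadjusted, these 4 genes were under 0.05, as were 14.7% of all genes. The call turned on the setting: with replicate number as a block Cldn3 and Cldn4 were called. Leaving out 1 array gave 0 to 3 calls, among Cldn1, Cldn3 and Cldn7. The arrays whose omission gave a call were 2-month diabetic 2 and 4, 2-month control 6, 4-month diabetic 5, 4-month controls 1 and 2, and 8-month diabetic 4 and 6.

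Between 8 and 2 months the Cldn3 effect differed by 0.77 ± 0.20 (adjusted p = 0.0187 with limma), from -0.14 ± 0.14 to 0.63 ± 0.14. It was the only one of the 9 genes called in this contrast, where 3.89% of all genes tested were called. The differences for Cldn1, Cldn4 and Cldn7 were 0.79 ± 0.26, 0.77 ± 0.28 and 0.44 ± 0.15, with adjusted p of 0.0874, 0.12 and 0.0956 from limma. Between 8 and 4 months 0 of the 9 were called, against 0.877% of all genes tested, and the adjusted p closest to the threshold was that of Cldn1, at 0.0556 for a difference of 1.05 ± 0.28. The 8-month arrays enter both contrasts, so they are not independent of each other.

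Other claudins went both ways at 8 months. Of 16 listed, 14 were measured and 9 tested, of which 1 was called higher and 3 lower, with a median of -0.05. Over all genes tested 9.87% were called higher and 6.95% lower. Cldn15, which like Cldn2 forms cation pores, rose by 0.42 ± 0.09 (adjusted p = 0.000708 with limma), from 7.07 to 7.49, with all diabetic arrays above all controls. At 2 and 4 months Cldn15 differed by 0.24 ± 0.09 and 0.25 ± 0.09, with overlap and without a call. Cldn10, of the proximal tubule and thick ascending limb, fell from 11.69 to 11.32, a difference of -0.37 ± 0.12 without overlap (adjusted p = 0.0312 with limma). At 4 months Cldn10 differed by -0.36 ± 0.13, also without overlap, and was not called (adjusted p = 0.215 with limma). With the 4-month arrays fitted alone it was called at that age. Cldn5, the claudin of endothelium, fell by 0.33 ± 0.10 (a difference of -0.33, adjusted p = 0.0175 with limma), and Cldn22 by 0.22 ± 0.08 (a difference of -0.22, adjusted p = 0.0452 with limma), both with overlap. Cldn16 and Cldn19, the magnesium and calcium pore of the thick ascending limb, differed by 0.16 ± 0.11 and 0.06 ± 0.17 and were not called.

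Of 33 other tight junction genes tested, 3 were called higher and 3 lower at 8 months, or 18.2%, close to the 16.8% of all genes. Igsf5, an immunoglobulin-like junction protein also called JAM4, rose by 0.45 ± 0.09 without overlap. Ybx3, the transcription factor that binds Tjp1, rose by 0.37 ± 0.11, also without overlap, and Cgn, cingulin of the cytoplasmic plaque, by 0.29 ± 0.09. Ildr2, of the angulin family of tricellular junctions, fell, with a difference of -0.36 ± 0.09, as did Jam3, a junctional adhesion molecule, with -0.33 ± 0.12, and Pard3b, a polarity protein, with -0.20 ± 0.07. The groups overlapped in Cgn and in the 3 that fell. Adjusted limma p of these 6 ran from 0.000542 to 0.0422. Other settings ended some of the calls in both lists: Jam3 was lost with replicate number as a block, Cldn10 and Pard3b with a clock covariate, Pard3b also with the 8-month arrays alone, Cgn with quantile normalization, Cldn22 with quantile normalization within each age, with no filter or without 4-month controls 3 and 4, and both Cgn and Pard3b with the mean of all probe sets. Some settings added calls, for example Cgnl1, Cxadr and Sympk with array quality weights.

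**Figure D5:**
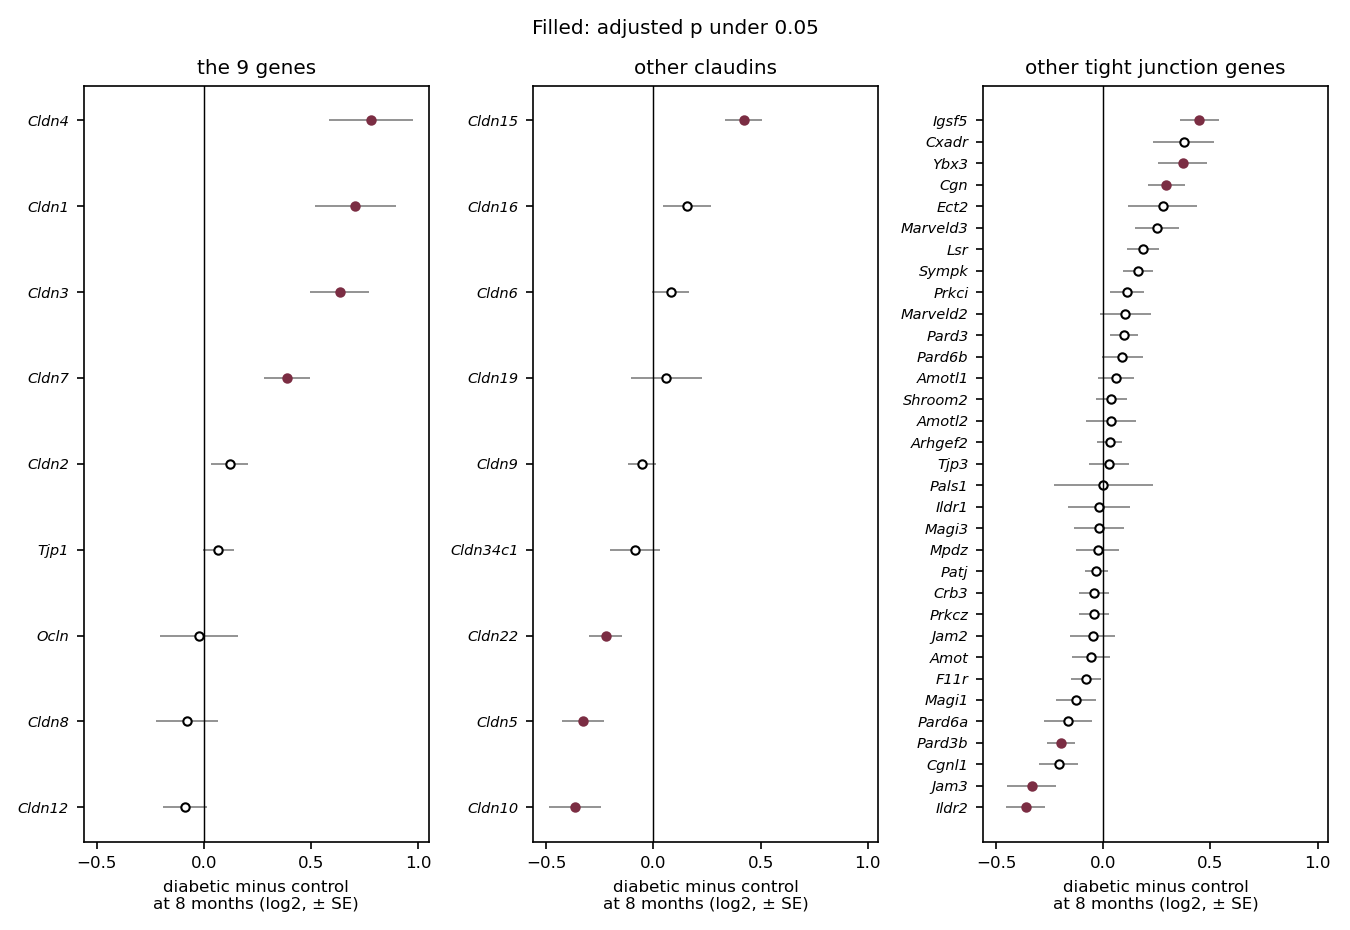
Difference at 8 months (log2, ± SE of the fit) of the 9 genes, the other claudins and the other tight junction genes that were tested. Filled points passed the adjusted threshold of 0.05: 4 of 9, 4 of 9 and 6 of 33, against 16.8% of all genes tested.

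Cldn15, Igsf5 and Ildr2 were called on leaving out each 8-month array in turn, while the count over both lists went from 10 to 5 without diabetic array 2 and to 6 without diabetic array 3 or 5 or control array 1 or 6. At 2 months 1 of these 42 genes was called, Amot, the angiomotin that binds polarity proteins, with a difference of -0.35 ± 0.09, and at 4 months 0 were. Of all genes tested 2.54% and 0.969% were called at these ages. An unadjusted limma p under 0.05 was found at 2 months in 1 of 9 claudins and 4 of 33 tight junction genes, against 15.2% of all genes tested. At 4 months it was found in 3 of 9 and 2 of 33, against 11.4%. Of 18 genes of adherens junctions and desmosomes tested, 3 were called higher and 2 lower at 8 months, against 9.87% and 6.95% of all genes tested. Vinculin (Vcl), which links cadherin complexes to actin, rose by 0.63 ± 0.08 and the adhesion receptor Nectin2 by 0.58 ± 0.09, and N-cadherin (Cdh2) fell by 0.67 ± 0.16 (a difference of -0.67), each without overlap. Kidney cadherin (Cdh16) differed by -0.22 ± 0.06. Cdh2 was also called at 4 months, at -0.71 ± 0.17, and the desmoglein Dsg2 at 2 months, at -0.47 ± 0.12. The 4-month means of Cdh2, 4.51 in diabetic and 5.22 in control arrays, lay below the limit for testing of 5.27. The gene was tested because its mean over all arrays was 5.68.

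Over all 35 arrays, with the mean of each age removed, the 4 called genes correlated with each other at Pearson r from 0.57, for Cldn1 with Cldn4, to 0.77, for Cldn4 with Cldn7. These arrays share the 8-month rise that made the genes stand out, so the values describe that pattern and add no test. Genes without a call correlated with them as well: Tjp1 had r = 0.619 with Cldn1, above the r of Cldn1 with Cldn3, Cldn4 or Cldn7, and Cldn4 had r = 0.53 with Cldn2 and also with Ocln. Cldn8 and Ocln had r = 0.7 with each other. These correlations include 2-month control array 6, the lowest of its group for Cldn2 (12.28), Cldn4 (7.37), Cldn8 (9.28) and Ocln (7.52). Correlations without that array were not computed. The genes most like each called gene by the same measure, over the same 35 arrays, were Sytl2 (r = 0.764), Sh3pxd2b (0.757) and Sox4 (0.751) for Cldn1. For Cldn3 they were Birc3 (0.888), Ctsc (0.88) and Tes (0.877). For Cldn4 they were Tnfaip1 (0.856), Tes (0.851) and Ifngr1 (0.849), and for Cldn7 they were Plp2 (0.862), Arpc5 (0.853) and Lgals3 (0.828). Sox4 is also in the list of injury markers.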

How the data were processed

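The authors deposited log2 probe set values for 35 arrays, and per the labels' protocols biotinylated cRNA was made from 5 ug of TRIzol-extracted RNA. Their background correction, summarization and build were not given in the sources used here.

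Probe sets naming 1 gene were kept (34945), and a gene was read by its brightest probe set over all arrays. Genes below the 40th percentile of probe set means were left out. Group means were fitted over 35 arrays with limma 3.58.1 on R 4.3.3 (29 residual degrees of freedom, 33.7 moderated), with the package data.table (version 1.17.8), and tested on simulated data first. Figures used matplotlib 3.10.9. Exact permutation tests were two-sided.

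The 9 genes, the lists and the tests were chosen with earlier results of these data known. The text names the 9 genes, any called claudin or tight junction gene (Cldn16 and Cldn19 were added after their values were seen), up to 5 adherens genes by smallest p, up to 3 markers per list, and the 3 genes most like each called gene. Some tight junction genes are named because an alternative fit called them. Same-numbered arrays correlated, after removing group means, at r of 0.246 to 0.444 in 6 of 6 pairs at 2 months, above 0.1 in 1 of 4 pairs at 4 months and in 2 of 6 at 8 months. They were therefore treated as pairs in an alternative fit, and other alternatives changed scaling, filter, probe set choice, arrays and covariates. Promoter sequences are RefSeq's (GRCm38.p6), which held 8 of the 9 genes.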

Additional observations from a re-analysis of the deposited data

Results flagged for a closer look

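A sample stood far from the others of its group in 7 of 54 gene and group combinations of the 9 genes, where chance alone gives about 1 in 20. At 2 months this was control array 6 in 4 genes, lowest for Cldn4 (7.37), Cldn8 (9.28) and Ocln (7.52) and highest for Cldn12 (10.97). Its 3′/5′ ratio of the actin control probe sets was 2.56 (log2). The others were 4-month control array 1 for Cldn3 (8.35), 4-month diabetic array 1 for Tjp1 (9.98) and 8-month diabetic array 5 for Cldn8 (11.28).

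The diabetes effect on Cldn3 differed between 8 and 2 months by 0.77 on the log2 scale. Among the other junction genes named, the effect differed between the 3 ages by the limma F test for Cgn (adjusted p = 0.0238), Nectin2 (adjusted p = 0.019) and Vcl (adjusted p = 0.022).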

How the results depend on the processing

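At 8 months the 9 genes gave 4 calls in each refit over all genes except with arrays of the one age alone, which gave 3, and at 2 and 4 months 0 in each. Cldn1 was not called by any of its 3 other probe sets, and Cldn2 passed the unadjusted exact permutation test (p = 0.0433). Among the other probe sets of uncalled genes, that of Ocln passed the same test at 8 months (exact permutation p = 0.0216). No called value reversed. Uncalled values changed sign in places, for example Cldn1 at 4 months, from -0.34 to 0.14 without controls 3 and 4, Cldn2 at 2 months, from -0.03 to 0.36 with its second probe set, and Cldn12 at 2 months, from -0.18 to 0.07 without the arrays numbered 5 and 6. On the second probe set of Cldn2, 2-month control array 6 read 7.70, where the other controls of that age read 9.80 to 11.89. That probe set was not refitted without this array.

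With same-numbered arrays paired by a replicate block, all 4 genes stayed called at 8 months (adjusted p 0.00111 to 0.018 with limma). The count of the 9 genes whose effect differed between ages was 0 and became 2 with each array rescaled to a common mean and spread, 1 with the mean of all probe sets, 2 with array weights, 2 with the replicate block, 3 with it as a random effect, 2 without the 2-month arrays numbered 5 and 6, 2 with a batch term for them, and 0 to 3 on leaving out 1 array. For the other tight junction genes and claudins, the 1 call at 2 months became 0 with the mean of all probe sets or the one age alone, 6 with weights, 2 with the random block, without those arrays or with a clock covariate, and 0 to 2 on leaving out 1 array. The 0 calls at 4 months became 2 with the one age alone or without those 2-month arrays and 3 with weights, and the 10 at 8 months became 5 to 10 on leaving out 1 array. Calls at 8 months were also gained. The random block, or leaving out those 2-month arrays, kept the 10 and added Cgnl1, Cxadr, Lsr, Marveld3 and Sympk. Weights kept the 10 and added Cgnl1, Cxadr and Sympk.

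Over all genes, the 330 calls at 2 months became 64 with the one age alone, 1296 with weights, 553 with the replicate block, 776 with it random, 696 with the batch term and 192 to 515 on leaving out 1 array. The 126 at 4 months became 358 with the one age alone, 942 with weights, 267 with the random block, 385 without the 2-month arrays numbered 5 and 6, 243 with the batch term, 5 without controls 3 and 4, and 29 to 135 on leaving out 1 array. The 2187 at 8 months became 3400 without those 2-month arrays and 1633 to 2329 on leaving out 1 array. The causes were not tested. The clock covariate, Arntl minus Dbp, kept the 4 claudins called at 8 months and ended the calls of Cldn10 and Pard3b. The SD ratios without 8-month diabetic array 3 were computed after seeing the data. Signal over background limits the 2 dim probe sets of Cldn1 and the 4-month values of Cdh2, and no array file gives a depth.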
